A study of Mus musculus with 24 samples.

Results

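Interferon-stimulated genes are the genes that cells switch on when they sense interferon, and 38 of them were followed here in stromal cells of the mouse gut. They were taken by symbol, and each of the 38 symbols matched 1 gene of the 54418 in the count table. All 38 were among the 19050 genes with enough counts to be tested. RNA was sequenced from C57Bl6 background mice aged 8 to 12 weeks, in stromal cells of the small intestine or colon that lacked Epcam and CD45, surface proteins of epithelium and leukocytes. The cells were divided by CD31, which marks endothelium and is the product of Pecam1, and by a GFP transgene that reports Rspo3, whose protein strengthens Wnt signalling. The labels name no treatment. The 8 groups were CD31- Rspo3-, CD31- Rspo3+, CD31+ Rspo3- and CD31+ Rspo3+ cells of each tissue, with 3 libraries each, 24 in all.

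Library totals ran from 8462041 to 29214487 estimated counts. Levels are in CPM, that is, scaled so that library totals are alike, and are listed for libraries 1, 2 and 3 of a group in that order. Whether the libraries in a group stem from different mice is not stated in the labels, so the p-values reflect library-to-library spread alone, and that spread may be technical. Pecam1 stood at 347 to 1486 CPM in the CD31+ and 8.18 to 44.0 CPM in the CD31- libraries. Rspo3 stood at 139 to 450 CPM in the reporter-positive and 11.2 to 24.1 CPM in the reporter-negative libraries. A list of 10 lymphatic endothelial markers summed to 35580 to 56960 CPM in the CD31+ Rspo3+ libraries and 2630 to 7615 CPM in the CD31+ Rspo3- libraries. A list of 9 blood endothelial markers summed to 865 to 1267 CPM and 15030 to 21590 CPM in the same groups. Some colonic libraries stood apart. In CD31- Rspo3+ library 3, leukocyte markers summed to 1455 CPM against 62.6 and 89.4 CPM in the other libraries of the group, and epithelial markers to 2113 CPM against 44.0 and 215 CPM. In CD31+ Rspo3- library 3, fibroblast markers summed to 9454 CPM against 1386 and 1868 CPM. These are the 2 colonic libraries with markers of other cell types that are left out together below. Libraries kept in that fit also held epithelial markers. These summed to 4540 to 7552 CPM in small intestinal and 1452 to 5477 CPM in colonic CD31- Rspo3- cells. CD31+ Rspo3- library 1 was the highest of its group in 35 of the 38 genes, against 35.6% of all genes tested. Library 1 also led most often in the other colonic groups. It did so in 22 genes in CD31- Rspo3-, 24 in CD31- Rspo3+ and 17 in CD31+ Rspo3+ cells. The shares of all genes there were 36.4%, 30.5% and 36.3%. The labels do not say what library 1 of different groups shares.

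Interferons bind receptors at the cell surface, which signal to the nucleus. Type I and type III interferons act mostly through a complex with STAT2 and IRF9 that binds a promoter sequence called the interferon-stimulated response element (ISRE), and type II interferon mostly through another sequence, the gamma-activated sequence. The genes reached in this way sense viral nucleic acids, block steps of viral growth, or attach ISG15, a ubiquitin-like protein, to other proteins. In the gut they are also active without infection, and contact with the microbiota contributes to that tone.

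Promoters are shown for 7 genes of the CD31+ reporter comparison that hold an ISRE core, chosen because they hold it, so that the element can be read. RefSeq promoter windows on GRCm38.p6, from 250 bases before to 50 bases after a start site, were matched for 29 of the 38 genes (76.3%), too few for a statement about the list. The ISRE core was searched as GAAANNGAAA, or TTTCNNTTTC on the other strand, with overlapping matches kept, and 3.44% of all 32851 windows of that length held it. The 200 bases before the start are printed 5′ to 3′ on the gene's strand, with the core in capitals. Isg15, Rsad2, Ifit3 and Ifit3b differed between the tissues in their response to the reporter sign in CD31+ cells. Gbp7 and Bst2 were higher in Rspo3+ cells of both tissues, and Irgm1 was lower in both.
Isg15 (chr4:156200819-156201018, minus strand): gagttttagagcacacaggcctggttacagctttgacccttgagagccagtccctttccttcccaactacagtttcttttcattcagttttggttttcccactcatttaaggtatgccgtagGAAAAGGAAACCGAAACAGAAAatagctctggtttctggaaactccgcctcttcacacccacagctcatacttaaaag
Rsad2 (chr12:26456453-26456652, minus strand): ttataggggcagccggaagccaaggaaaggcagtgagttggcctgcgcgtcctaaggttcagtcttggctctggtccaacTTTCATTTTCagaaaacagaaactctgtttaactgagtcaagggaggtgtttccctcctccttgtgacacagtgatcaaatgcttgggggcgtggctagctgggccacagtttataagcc
Ifit3 (chr19:34583329-34583528, plus strand): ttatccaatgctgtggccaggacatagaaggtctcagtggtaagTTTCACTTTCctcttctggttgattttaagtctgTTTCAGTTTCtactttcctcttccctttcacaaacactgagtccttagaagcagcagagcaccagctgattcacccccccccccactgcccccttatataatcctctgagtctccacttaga
Ifit3b (chr19:34607757-34607956, plus strand): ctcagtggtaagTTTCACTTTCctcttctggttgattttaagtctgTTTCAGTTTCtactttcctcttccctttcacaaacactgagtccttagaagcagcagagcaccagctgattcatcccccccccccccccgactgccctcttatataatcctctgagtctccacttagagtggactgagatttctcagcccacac
Gbp7 (chr3:142530136-142530335, plus strand): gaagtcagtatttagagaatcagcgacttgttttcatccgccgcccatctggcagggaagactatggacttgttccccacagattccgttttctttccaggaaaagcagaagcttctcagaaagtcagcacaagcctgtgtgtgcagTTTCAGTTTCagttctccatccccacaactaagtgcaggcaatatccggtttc
Bst2 (chr8:71537473-71537672, minus strand): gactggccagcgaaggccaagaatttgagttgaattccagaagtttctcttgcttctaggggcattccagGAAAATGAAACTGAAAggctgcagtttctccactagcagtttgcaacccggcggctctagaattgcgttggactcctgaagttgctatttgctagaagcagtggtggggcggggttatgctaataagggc
Irgm1 (chr11:48871421-48871620, minus strand): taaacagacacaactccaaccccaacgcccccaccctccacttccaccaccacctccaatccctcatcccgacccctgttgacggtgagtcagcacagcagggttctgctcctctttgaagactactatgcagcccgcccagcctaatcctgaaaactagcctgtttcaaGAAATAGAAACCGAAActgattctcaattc

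Since the 7 were chosen for the core, its presence in them is no result. The windows of Oasl2 and Ifit2, which also differed between the tissues, and of Xaf1 and Ifi44, which were higher in Rspo3+ cells of both, held no core. Those of Gbp2 and Ddx58 held 1 each. Isg15 held 3 overlapping cores that began 78, 72 and 66 bases before the start. Ifit3 and Ifit3b each held a pair, at 156 and 122 bases and at 188 and 154 bases, in stretches that read alike. Bst2 and Irgm1 held overlapping pairs, and Rsad2 and Gbp7 held 1 core each. A match describes letters and is no measure of binding. In the GENCODE annotation of GRCm38 several of the genes lie side by side. Ifit2, Ifit3, Ifit3b and Ifit1 lie on chromosome 19 between 34550694 and 34650009, and Gbp7, Gbp3 and Gbp2 on chromosome 3 between 142530342 and 142638008. Oas2, Oas3 and Oas1a follow each other on chromosome 5 from 120730333 to 120907521, and Oasl2 and Oasl1 lie at 114896936 to 114937915. Some of these copies are so alike that reads may be shared between them. Of all 31-base stretches of Ifit3 transcripts, 61.8% also occurred in another gene, mainly Ifit3b. The share was 55.2% for Ifit3b, 68.8% for Oas1a (mainly Oas1g), 20.5% for Ifitm3 and 15.9% for Igtp (Irgm2), and the levels of these genes are uncertain to that extent. Dtx3l and Parp9 overlap by 458 exon bases on opposite strands, which the unstranded libraries cannot tell apart, and Ifi35 and Rtp4 share 16.8% and 13.9% of their exon bases with other annotated genes.

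**Figure D1:**
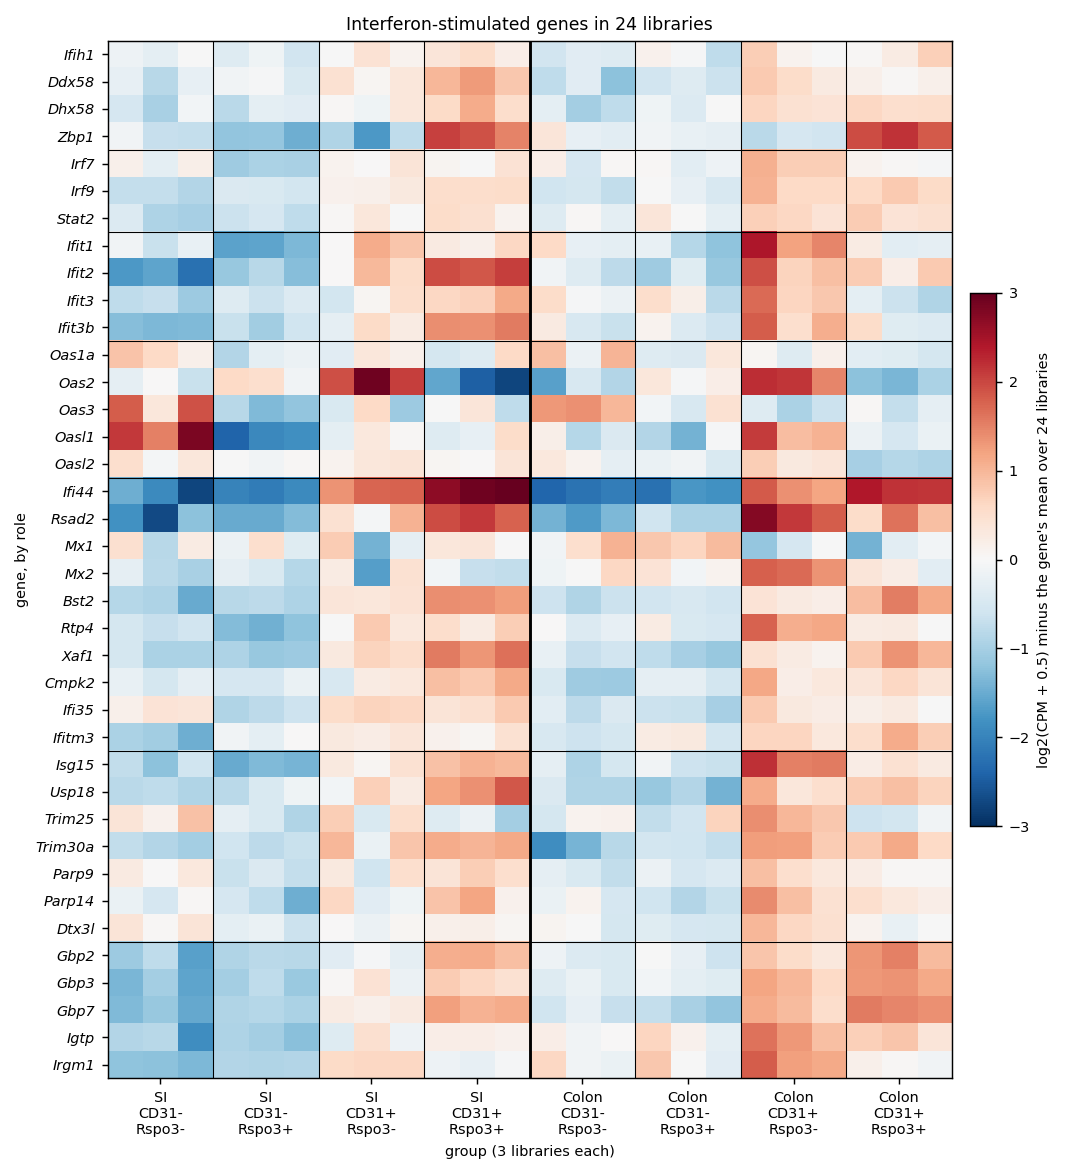
Level of each of the 38 genes (rows, grouped by role) in the 24 libraries (columns, 3 per group), as log2(CPM + 0.5) minus the gene's mean over all libraries. Red is above and blue below that mean; most rows are red in CD31+ and blue in CD31- columns, and colonic CD31+ Rspo3- library 1 is the reddest column of its group.

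Per transcript length, Ifitm3, which blocks fusion of viruses with cell membranes, was the most abundant of the 38 genes in all 8 groups, with mean levels of 2112 to 8968 TPM, a scale that takes transcript length into account. Bst2, which tethers budding virus to the cell surface, ranked next in 7 groups and at rank 3 in colonic CD31+ Rspo3- cells, at 183 to 1116 TPM. Mx1, of a family of dynamin-like antiviral GTPases, and Oas3 were at mean levels under 1 TPM in all 8 groups. The highest mean CPM of a gene most often lay in colonic CD31+ Rspo3- cells, for 17 of the 38 genes, and next in small intestinal CD31+ Rspo3+ cells, for 10. The lowest mean lay in small intestinal CD31- Rspo3- cells for 14 genes and in CD31- Rspo3+ cells for 13. The matching shares of all genes were not computed. Library 1 of the colonic CD31+ Rspo3- group was its highest in 35 of the 38 genes. The genes' median log2 level was 6.77 in that library and 6.39 and 6.20 in libraries 2 and 3. It was 6.56 to 6.76 in the small intestinal CD31+ Rspo3+ libraries, so the order of these groups is uncertain. In the heat map of all libraries, most genes are higher in CD31+ than in CD31- libraries. The ratio of the highest to the lowest group mean was smallest for the RNA sensor Ifih1 (1.77) and largest for Ifi44 (37.8).

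The widest comparison was between CD31+ and CD31- cells with the same reporter sign. Most of the genes were higher in CD31+ cells in each of the 4 comparisons. Among Rspo3+ cells of the small intestine, 31 of 38 were higher and 1 was lower, where 16.9% and 19.6% of all genes tested were. The genes' median log2 difference was 1.35, against -0.01 over all genes. Among Rspo3+ cells of the colon, 20 were higher and 2 lower (background 14.9% and 18.2%, median 0.63 against -0.07). Among Rspo3- cells, 22 were higher and 3 lower in the small intestine (20.1% and 21.6%, median 0.91 against -0.03), and 33 were higher and 1 lower in the colon (16.1% and 16.4%, median 1.25 against -0.07). Markers of other cell types moved with these comparisons. All 8 fibroblast markers were lower in CD31+ cells in each of the 4, with sums of 1090 to 9454 CPM against 16430 to 110300 CPM. Among Rspo3- cells, epithelial markers were lower for 8 of 10 in the small intestine and 5 of 10 colonic ones, and glia markers for 7 of 7 and 6 of 7. Among colonic Rspo3+ cells, 5 of 11 leukocyte markers were lower. Their part in the results was not tested. In this bulk RNA, more cells of a type and more RNA per cell cannot be told apart. Calls rest on edgeR's quasi-likelihood test at a Benjamini-Hochberg adjusted p under 0.05 over all genes.

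Ifi44, an antiviral effector, differed most firmly in each of these comparisons. In the small intestine it stood at 167, 197 and 213 CPM in CD31+ Rspo3+ cells and at 65.2, 86.5 and 88.2 CPM in CD31+ Rspo3- cells. The CD31- cells held 5.94, 5.53 and 6.42 CPM with and 8.83, 6.45 and 3.35 CPM without the reporter. No CD31- library came near a CD31+ library. Its log2 differences were 5.01 ± 0.28 (SE) and 3.68 ± 0.27 in Rspo3+ and Rspo3- cells of the small intestine, and the colonic values were 4.26 ± 0.28 and 3.82 ± 0.27 (edgeR adjusted p = 8.57e-11, 2.71e-09, 6.88e-10 and 2.85e-09). Xaf1, an antagonist of the apoptosis inhibitor XIAP, was higher by 2.58 ± 0.18 and 2.02 ± 0.18 in Rspo3+ cells of the small intestine and colon (edgeR adjusted p = 1.21e-09 and 3.53e-08). Bst2 was higher by 2.19 ± 0.17 in small intestinal Rspo3+ and 1.45 ± 0.16 in Rspo3- cells (edgeR adjusted p = 2.99e-09 and 7.16e-07). Gbp7, a guanylate-binding protein that acts on vacuoles holding pathogens, was higher by 2.41 ± 0.17 in colonic Rspo3+ and 1.56 ± 0.16 in small intestinal Rspo3- cells (edgeR adjusted p = 1.76e-09 and 3.18e-07). In colonic Rspo3- cells, Isg15 was higher by 2.36 ± 0.22 and Irf9, the DNA-binding partner of STAT2, by 1.38 ± 0.13 (edgeR adjusted p = 7.64e-08 and 1.54e-07). Isg15 was also higher in the other 3 comparisons, by 2.40 and 0.77 in Rspo3+ cells of the small intestine and colon and by 1.13 ± 0.21 in small intestinal Rspo3- cells (edgeR adjusted p = 2.93e-08, 0.00683 and 0.000235).

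**Figure D2:**
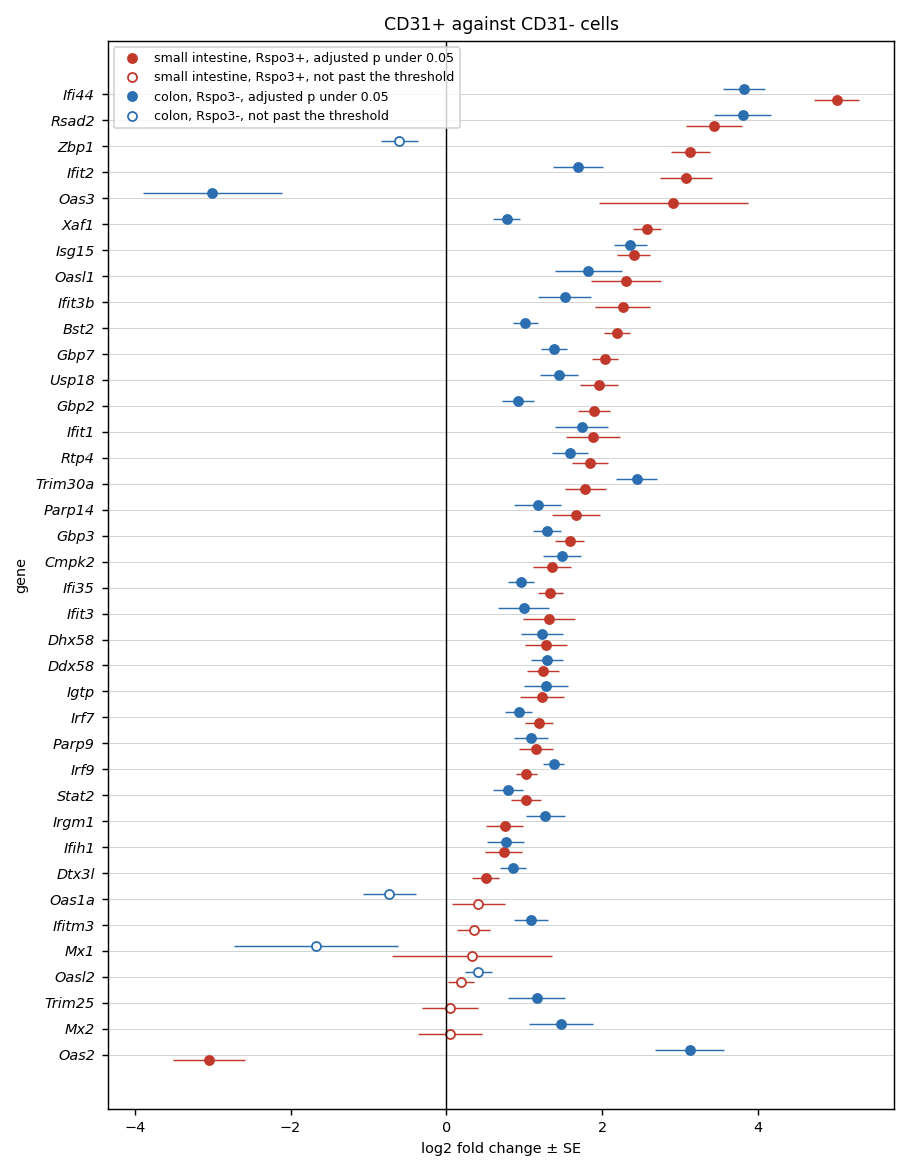
Log2 fold change of CD31+ against CD31- cells with its SE for each gene, in Rspo3+ cells of the small intestine (red) and Rspo3- cells of the colon (blue), which share no library. Filled points passed the test; most points lie right of 0, with Ifi44 at 5.01 and 3.82, and Oas2 lies left of 0 in the first and right in the second.

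By role, all 4 members of the IFIT family, which bind foreign RNA, were higher in CD31+ cells in 3 of the 4 comparisons, and Ifit2 was the member that passed in colonic Rspo3+ cells. In small intestinal Rspo3- cells Ifit3 lost its call without any CD31- library or CD31+ library 2 or 3 (edgeR adjusted p = 0.058 to 0.207), and Ifit1 without CD31- library 2 or CD31+ library 2 or 3 (0.0567 to 0.105). In colonic Rspo3- cells Ifit3 lost it without CD31+ library 1 or CD31- library 2 or 3 (edgeR adjusted p = 0.106 to 0.219), with limma (0.0648) and with only the compared libraries (0.0518). All 5 interferon-inducible GTPases (Gbp2, Gbp3, Gbp7, Igtp and Irgm1) were higher in the same 3 comparisons, and Gbp2, Gbp3 and Gbp7 in colonic Rspo3+ cells. Irgm1 lost its call in small intestinal Rspo3+ cells without CD31- library 1 or 2 or CD31+ library 3 (edgeR adjusted p = 0.0519 to 0.0611). The genes that were lower belonged to the OAS family, enzymes and relatives that answer double-stranded RNA, apart from the sensor Zbp1. Oas2 was lower in CD31+ than in CD31- cells when both were Rspo3+, by -3.05 ± 0.46 in the small intestine and -1.54 ± 0.43 in the colon (edgeR adjusted p = 2.27e-05 and 0.00874), and it was higher by 2.80 ± 0.44 and 3.12 ± 0.45 when both were Rspo3- (edgeR adjusted p = 3.94e-05 and 2.32e-05). The colonic Rspo3+ value did not pass with limma on log2 TPM (adjusted p = 0.0651). Oasl2 was lower by -0.69 ± 0.17 in colonic Rspo3+ cells (edgeR adjusted p = 0.00363), and did not pass with limma either (adjusted p = 0.127). Oasl1 and Oas3 were lower in small intestinal Rspo3- cells, by -2.27 ± 0.44 and -2.26 ± 0.86 (edgeR adjusted p = 0.000332 and 0.0406), where the CD31- libraries held the epithelial markers given below. Both were not lower throughout. With CD31, Oasl1 was higher in small intestinal Rspo3+ and colonic Rspo3- cells, and Oas3 in small intestinal Rspo3+ cells (36 against 6 counts). Zbp1, a sensor of Z-form nucleic acid that can start necroptosis, was higher by 3.13 ± 0.25 and 2.20 ± 0.24 in Rspo3+ cells of the small intestine and colon (edgeR adjusted p = 5.92e-09 and 6.09e-07). Among Rspo3- cells it was lower by -0.62 ± 0.23 in the small intestine (adjusted p = 0.0413), which was lost without CD31- library 1 (adjusted p = 0.245) or CD31+ library 2 (0.168), with only the compared libraries (0.142), with limma (0.323) and without the 2 colonic libraries that held markers of other cell types (0.0507). Zbp1 stood at -0.60 ± 0.23 in the colon (adjusted p = 0.0531, edgeR), which passed without CD31- library 2 or 3 (adjusted p = 0.0348 and 0.0428), with DESeq2 (0.024) and with its size factors (0.0344). Irf7, the factor that amplifies interferon production, was higher in CD31+ Rspo3+ cells of the small intestine and CD31+ Rspo3- cells of the colon by 1.19 ± 0.18 and 0.93 ± 0.18, and stood at 0.18 ± 0.17 and 0.16 ± 0.17 in the other 2 comparisons (edgeR adjusted p = 1.85e-05, 0.000427, 0.463 and 0.51). Oas3 kept its call in 2 of 6 fits without 1 library in small intestinal Rspo3- cells (lost without library 1 or 3 of either group, adjusted p = 0.104 to 0.124), and in colonic Rspo3- cells, where it was lower by -3.003 ± 0.89, lost it without CD31+ library 2 (adjusted p = 0.0674). The small intestinal call was also lost with no filter and with only the compared libraries (edgeR adjusted p = 0.068 and 0.0907).

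The question closest to the study's reporter was how Rspo3+ and Rspo3- endothelium differed. In CD31+ cells of the small intestine, 14 of the 38 genes were higher and 2 lower in Rspo3+ cells, where 9.23% and 10.8% of all genes tested were. In the colon 6 were higher and 14 lower (background 9.52% and 13.6%). The genes' median log2 difference was 0.43 in the small intestine and -0.40 in the colon, against 0 and -0.05 over all genes. The 2 comparisons share no library. Of the genes that were higher, 6 were so in both tissues (6 of 14 small intestinal and 6 of 6 colonic rises): Zbp1, Gbp2, Gbp7, Bst2, Xaf1 and Ifi44. Both that were lower in the small intestine, Oas2 and Irgm1, were among the 14 in the colon. Ifit3b, Isg15 and Rsad2 were higher in the small intestine and lower in the colon. The share of all genes tested that passed in both tissues was not computed. These overlaps are therefore not read as particular to the 38 genes. The lymphatic and blood endothelial marker sums given above move with the reporter sign, and so do smooth muscle and pericyte markers, 10 genes that summed to 826 to 1728 CPM in CD31+ Rspo3- and 129 to 306 CPM in CD31+ Rspo3+ libraries, none of the 10 being at 0 in any of the 4 groups. Their part in these results was not tested.

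Zbp1 had the largest rise of the 38 in both tissues. In the small intestine it stood at 22.8, 12.6 and 25.0 CPM in Rspo3- and 178, 162 and 120.1 CPM in Rspo3+ libraries. In the colon it stood at 24.2, 30.0 and 28.4 CPM against 166, 194 and 154 CPM. The groups lay far apart in both tissues, with log2 differences of 2.93 ± 0.25 and 2.64 ± 0.24 (edgeR adjusted p = 4.56e-08 and 1.45e-07). Bst2 stood at 246, 241 and 255 CPM against 500.4, 491 and 457 CPM in the small intestine, and at 252, 230 and 219 CPM against 363, 556 and 416 CPM in the colon. It rose about equally, by 0.96 ± 0.16 and 0.93 ± 0.16 (edgeR adjusted p = 0.000164 and 0.00022), without overlap of the groups. Gbp2, a guanylate-binding protein, rose from 174, 216 and 184 CPM to 470.0, 478 and 415 CPM in the small intestine (log2 1.25 ± 0.20, edgeR adjusted p = 0.000132), and by 0.70 ± 0.20 in the colon (adjusted p = 0.0149), a call lost without Rspo3+ library 2 (adjusted p = 0.0837). Xaf1 rose from 76.2, 66.0 and 59.2 CPM to 94.9, 141 and 110.4 CPM in the colon (log2 0.78 ± 0.17, edgeR adjusted p = 0.00214) and by 1.02 ± 0.17 in the small intestine (adjusted p = 0.000201). Ifi44 rose by 1.26 and 0.77 and Gbp7 by 0.91 and 0.58, the colonic Gbp7 call being lost with limma (adjusted p = 0.0946) and without the 2 colonic libraries that held markers of other cell types (0.0582). In the colon Ifi44 lost its call without Rspo3+ library 1 or Rspo3- library 2 or 3 (adjusted p = 0.0677, 0.0834 and 0.0819). The number of colonic rises was 3 when both colonic libraries with markers of other cell types were left out, the colonic falls then being 15.

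Oas2, which makes the second messenger that activates RNase L, moved most in the other direction. In the small intestine it stood at 21.5, 43.25 and 23.7 CPM in Rspo3- and 1.47, 0.552 and 0.356 CPM in Rspo3+ libraries. In the colon it stood at 26.35, 25.2 and 15.4 CPM against 1.98, 1.73 and 2.49 CPM. The log2 changes of -5.13 ± 0.50 and -3.43 ± 0.45 (edgeR adjusted p = 2.56e-07 and 1.13e-05) left no overlap between the groups. Irgm1, an immunity-related GTPase that controls autophagy of intracellular bacteria, stood at 226, 236 and 236 CPM against 138, 128 and 148 CPM in the small intestine and at 535, 356 and 335 CPM against 170.3, 156 and 141 CPM in the colon. Its change of -0.75 ± 0.24 in the small intestine (edgeR adjusted p = 0.0323) was lost when any 1 of the 6 libraries was left out (adjusted p = 0.0546 to 0.0949), while that of -1.39 ± 0.25 in the colon was not (adjusted p = 0.000268). Oasl2, an OAS relative, stood at 97.9, 72.7 and 76.25 CPM in colonic Rspo3- and 29.2, 32.5 and 30.6 CPM in Rspo3+ libraries, a log2 change of -1.42 ± 0.17 (edgeR adjusted p = 4.03e-06). Irf7 stood at 171, 135 and 136 CPM against 87.4, 82.5 and 79.2 CPM in the colon, a log2 change of -0.83 ± 0.18 (edgeR adjusted p = 0.00152). In the small intestine Irf7 was level, at 87.3, 82.0 and 106 CPM and 85.2, 80.6 and 109.5 CPM (log2 difference 0.00 ± 0.17, edgeR adjusted p = 1).

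**Figure D3:**
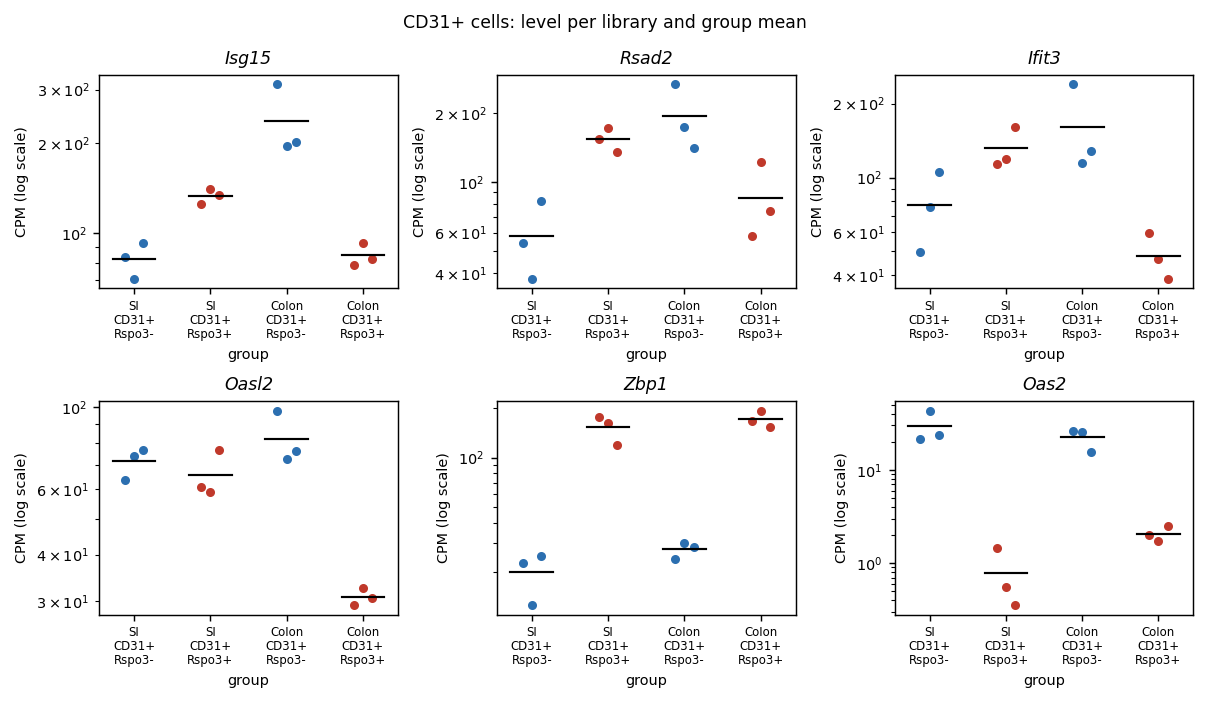
Level in each CD31+ library (points; red Rspo3+, blue Rspo3-) and group mean (black line) of 6 genes on a log axis of CPM. Zbp1 is higher and Oas2 lower in Rspo3+ cells of both tissues, while Isg15, Rsad2 and Ifit3 have their highest mean in colonic Rspo3- cells, and Oasl2 is lowest in colonic Rspo3+ cells.

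The difference between the tissues was itself tested, as the colonic minus the small intestinal log2 change with the reporter sign. Among CD31+ cells 8 of the 38 genes had a lower value in the colon, where 1.29% of all genes did, and 0 a higher one, where 0.64% did (1 higher at an unadjusted p under 0.05 with edgeR, and 0 with DESeq2 and with limma after adjustment). The median over the 38 genes was -0.68, against -0.02 over all genes. Isg15, the ubiquitin-like modifier, led them. It stood at 83.8, 70.7 and 92.8 CPM in small intestinal Rspo3- and 125, 140.1 and 134 CPM in Rspo3+ libraries, and at 313, 194 and 201.5 CPM against 78.8, 92.9 and 82.4 CPM in the colon. Neither pair of groups overlapped, and the order of reporter signs turned round between the tissues. The log2 change was 0.69 ± 0.21 in the small intestine and -1.48 ± 0.21 in the colon (edgeR adjusted p = 0.0211 and 2.42e-05), and the tissue difference -2.17 ± 0.29 (adjusted p = 0.000412). The small intestinal rise was lost without Rspo3- library 1 or 2 or Rspo3+ library 2 or 3 (adjusted p = 0.0503 to 0.0888), and the tissue difference was not lost in any of 12 fits without 1 library.

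Rsad2, the gene of viperin, which makes a chain-terminating nucleotide, stood at 54.1, 37.65 and 82.4 CPM against 153, 172 and 136 CPM in the small intestine and at 267, 173 and 141 CPM against 57.8, 122 and 74.75 CPM in the colon. The tissue difference was -2.59 ± 0.47 (edgeR adjusted p = 0.00447). The colonic change of -1.19 ± 0.33 lost its call without Rspo3- library 1 or Rspo3+ library 1 or 3 (adjusted p = 0.0886, 0.0835 and 0.0567). Ifit3 stood at 49.5, 75.8 and 106 CPM against 114, 119 and 161 CPM in the small intestine, where it did not pass (edgeR adjusted p = 0.111), and at 240.0, 114 and 128 CPM against 59.2, 46.4 and 38.7 CPM in the colon. Its tissue difference was -2.51 ± 0.47 (edgeR adjusted p = 0.00571). Ifit3b, its near copy, stood at 11.9, 21.9 and 17.3 CPM against 38.7, 38.2 and 43.4 CPM, and at 52.5, 20.9 and 31.6 CPM against 21.4, 11.1 and 10.7 CPM, where the colonic ranges overlap (tissue difference -2.52 ± 0.48, edgeR adjusted p = 0.00694). Its colonic fall was lost without Rspo3- library 1 or Rspo3+ library 2 or 3 (adjusted p = 0.0918, 0.0549 and 0.0563), and its small intestinal rise without Rspo3- library 1 (0.0679). Oasl2, level in the small intestine at 63.5, 74.0 and 76.8 against 60.9, 59.2 and 76.5 CPM, had a tissue difference of -1.29 ± 0.24 (edgeR adjusted p = 0.00555). Ifit2 and Rtp4, an interferon-inducible chaperone of membrane receptors, differed by -2.09 ± 0.44 and -1.31 ± 0.32, and the RNA sensor Ddx58 (RIG-I) by -1.19 ± 0.29 (edgeR adjusted p = 0.0138, 0.0334 and 0.04). Rtp4 lost its call in 8 and Ddx58 in 10 of 12 fits without 1 library (highest adjusted p = 0.111 and 0.121). Rtp4 also lost it with only the compared libraries (edgeR adjusted p = 0.085). Ddx58 also lost it with no filter (edgeR adjusted p = 0.0646) and with limma (adjusted p = 0.2885). The tissue difference did not pass for Irf7 (-0.83 ± 0.25, edgeR adjusted p = 0.0969) or Zbp1 (-0.29 ± 0.33, adjusted p = 0.781). Without colonic CD31+ Rspo3- library 1, which was high in most of the 38 genes, 6 genes had a lower value in the colon, and the colonic comparison kept 6 rises and 12 falls.

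**Figure D4:**
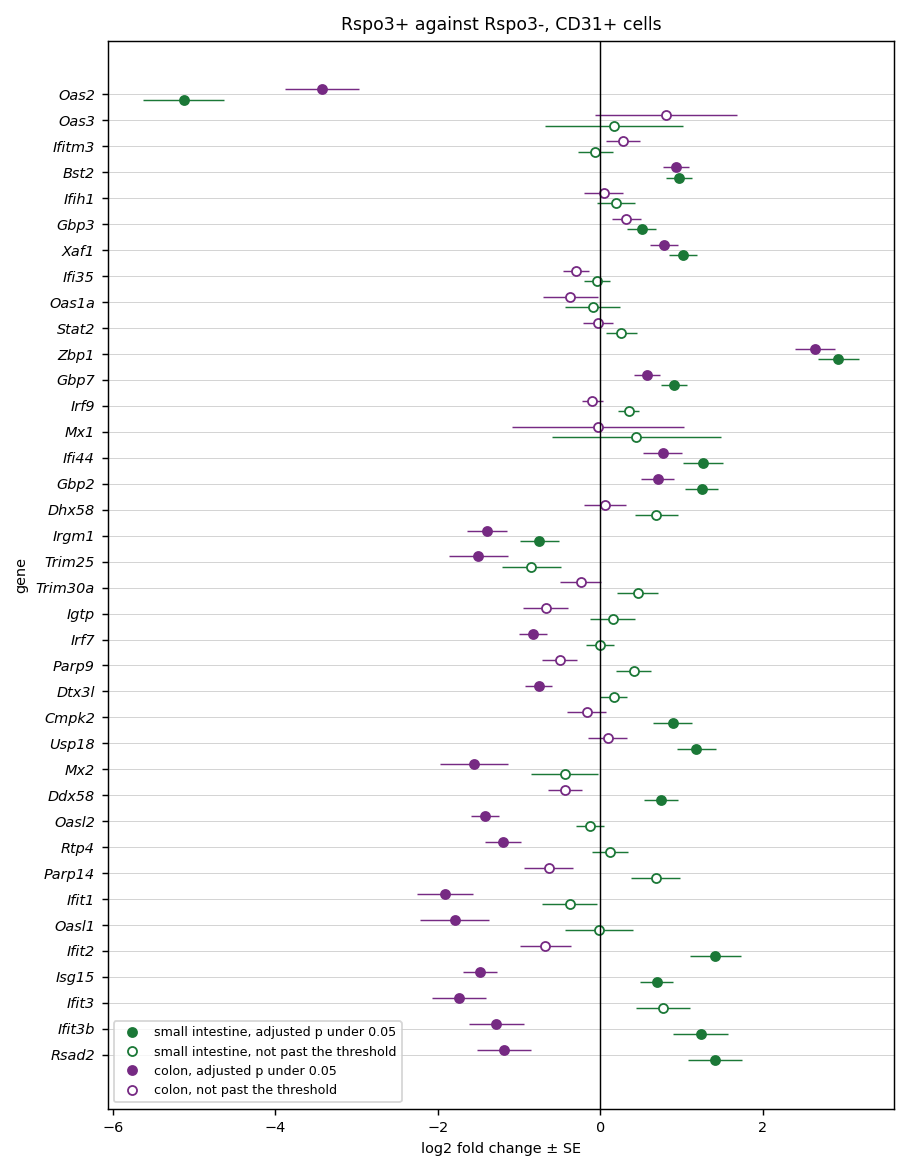
Log2 fold change of Rspo3+ against Rspo3- CD31+ cells with its SE, in the small intestine (green) and colon (purple), ordered by the tissue difference. Filled points passed the test. At the bottom Rsad2, Ifit3b and Isg15 lie right of 0 in the small intestine and left of 0 in the colon, while Zbp1 lies right and Oas2 left in both.

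By role, the sensors Ddx58 and Zbp1 rose in the small intestine, Zbp1 alone in the colon, and no sensor fell. The rise of Ddx58 was lost without Rspo3- library 2 or Rspo3+ library 2 (edgeR adjusted p = 0.0552 and 0.0554) and with limma (0.216). Of the 4 IFIT genes, Ifit2 and Ifit3b rose in the small intestine, and Ifit1, Ifit3 and Ifit3b fell in the colon. In the OAS family, small intestinal cells showed 1 fall among 5 genes and colonic cells 3 (Oas2, Oasl1 and Oasl2). Of 7 modifiers, Usp18, which removes ISG15 and dampens receptor signalling, and Isg15 rose in the small intestine. In the colon Isg15, the ubiquitin ligase Trim25 and Dtx3l, which acts with Parp9, fell. Trim25 stood at 84.8, 63.8 and 56.2 CPM against 20.7, 21.8 and 29.6 CPM there. Among the other effectors, Mx2, annotated as a polymorphic pseudogene, stood at 32.3, 30.7 and 23.9 CPM against 11.8, 10.6 and 7.20 CPM in the colon. That fall was lost without Rspo3+ library 3 (edgeR adjusted p = 0.0094 with and 0.0536 without it). Cmpk2, a mitochondrial nucleotide kinase whose gene lies beside Rsad2 on chromosome 12, rose in the small intestine from 34.4, 57.0 and 59.6 CPM to 90.4, 83.6 and 106 CPM, a call lost without Rspo3- library 1 (edgeR adjusted p = 0.0685) or Rspo3+ library 3 (0.0515).

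Genes that carry or answer the interferon signal, but are not among the 38, were read beside them. Of the signalling machinery, 27 of 35 genes could be tested. In CD31+ cells 4 were higher and 5 lower with the reporter in the small intestine; in the colon 2 were higher and 10 lower. Of all genes tested, 9.23% were higher and 10.8% lower in the small intestine, the colonic shares being 9.52% and 13.6%. The machinery's small intestinal counts and its colonic rises lie near those shares. Irf1, an interferon-induced transcription factor, fell in both tissues, from 1003, 840.4 and 1137 CPM to 459, 526 and 468 CPM and from 1949, 1609 and 1332 CPM to 539, 552.5 and 468 CPM (edgeR adjusted p = 0.000808 and 5.6e-06). The feedback inhibitor Socs3 and the adaptor Myd88 fell in both, with log2 changes of -1.81 and -1.596 in the small intestine, and with colonic changes of -1.95 and -2.28. Socs1, another feedback inhibitor, fell from 271, 189 and 205 CPM to 53.8, 40.2 and 36.7 CPM in the colon (log2 -2.35 ± 0.26, edgeR adjusted p = 1.17e-06). Of 16 genes of class I antigen presentation, 13 were higher and 0 lower in the small intestine and 3 higher and 0 lower in the colon. The immunoproteasome subunit Psmb9 led them, at 97.5, 99.2 and 106 CPM against 251, 208 and 234 CPM in the small intestine and at 140.3, 158 and 125 CPM against 231, 339 and 245 CPM in the colon. Of 42 other interferon-inducible genes, 12 were higher and 5 lower in the small intestine, and 4 higher and 11 lower in the colon. The 5 small intestinal falls and the 4 colonic rises lie near the shares over all genes. Gbp8 rose by 2.75 ± 0.22 and 2.53 ± 0.22, and Ifi203 fell by 3.56 ± 0.30 and 2.67 ± 0.28 (edgeR adjusted p = 2.34e-08, 5.34e-08, 4.14e-08 and 7.61e-07).

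The genes of the type I and type II receptors were detected in every library. Those of the type III receptor are not described. Ifnar1 and Ifnar2, the subunits of the type I receptor, lay at 48.4 to 106 CPM and 83.2 to 270 CPM. For Ifngr1 and Ifngr2, the type II receptor subunits, the ranges were 214 to 673 CPM and 28.2 to 192 CPM. Among ligands, Ifna4 and Ifnl3 had 0 counts in all 24 libraries, which allows up to 3 counts per library, counting error only. Ifnb1 had 10 counts, all in colonic CD31- Rspo3+ cells. Ifng had 81 counts in that group, at 4.99 CPM in library 3 against 0.195 and 0 CPM, the library with the high leukocyte markers.

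In CD31- cells of the small intestine, which held fibroblast markers, 1 of the 38 genes was higher and 12 were lower in Rspo3+ than in Rspo3- cells, where 16.1% and 14.3% of all genes tested were. The count of falls was 7 without Rspo3- library 1. Markers of several cell types moved with this comparison. Fibroblast markers were higher in Rspo3+ cells for 7 of 8 (sums of 16430 to 22490 CPM against 98870 to 110300 CPM), lymphatic endothelial markers for 9 of 10 and pan-endothelial markers for 8 of 10. A list of 10 epithelial markers summed to 4540, 5056 and 7552 CPM in the Rspo3- libraries and to 41.2, 151 and 160.2 CPM in the Rspo3+ libraries, with none of the 10 at 0 in either group. Enteric glia markers, 7 genes, summed to 121 to 135 CPM against 6.30 to 12.9 CPM, none of them at 0 in either group. The part of these cells in the results was not tested.

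Oasl1, an OAS relative that restrains translation of Irf7, showed the largest of these falls that rested on ample counts. It stood at 45.9, 29.8 and 75.0 CPM in Rspo3- and 1.49, 2.25 and 2.48 CPM in Rspo3+ libraries. The log2 change of -4.60 ± 0.49 (edgeR adjusted p = 1.09e-06) left the groups far apart. Ifi35 fell from 126, 150.3 and 147 CPM to 60.8, 66.3 and 73.7 CPM (log2 -1.07 ± 0.16, edgeR adjusted p = 5.39e-05), and Irf7 from 90.1, 66.2 and 90.9 CPM to 38.4, 41.6 and 40.9 CPM (log2 -1.03 ± 0.18, adjusted p = 0.000177). Neither pair overlapped. Oas3 had 202 counts in the 3 Rspo3- and 6 in the 3 Rspo3+ libraries. Zbp1 fell by 0.82 ± 0.23 (edgeR adjusted p = 0.0115), a call lost without Rspo3- library 1 (adjusted p = 0.089). Isg15 fell by 0.59 ± 0.21 (edgeR adjusted p = 0.0383), a call lost without Rspo3- library 1 or 3 or Rspo3+ library 1 or 2 (adjusted p = 0.0664 to 0.174) and with limma on log2 TPM (0.0556). Ifitm3 was the gene that rose, from 990.3, 921 and 684 CPM to 1776, 1551 and 1903 CPM (log2 1.01 ± 0.22, edgeR adjusted p = 0.00128). The median of the 38 genes was -0.03 against 0.11 over all genes, and changed sign with the scaling, to 0.04 with limma on log2 TPM. Of the machinery genes, 9 of 27 were higher and 5 lower, where 16.1% and 14.3% of all genes tested were. The 5 falls lie near that share. Socs3, Myd88 and Socs1 rose by 1.89, 1.37 and 1.54, and Irf1 by 0.64 ± 0.20 (edgeR adjusted p = 0.0203). Ifnar2 rose by 0.94 ± 0.17 and Ifngr2 fell by 1.49 ± 0.21 (edgeR adjusted p = 0.000298 and 2.97e-05).

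In CD31- cells of the colon no gene of the 38 passed in either direction with edgeR, where 4.8% of all genes were higher and 4.34% lower. At an unadjusted p under 0.05, 4 were higher and 4 lower. DESeq2 called 3 higher and 1 lower, and limma on log2 TPM 0 higher and 9 lower. With limma the median log2 difference was -0.23 over all genes and -0.30 over the 38, against 0 and 0.04 with edgeR. Without the 2 colonic libraries whose marker sums stood apart from their group, and with all CD31- Rspo3- libraries kept, edgeR called 2 higher and 0 lower. Without CD31- Rspo3- library 3, or CD31- Rspo3+ library 3, it called 1 and 2 higher. Epithelial markers summed to 5477, 1452 and 3519 CPM in these Rspo3- and to 215, 44.0 and 2113 CPM in these Rspo3+ libraries. Of the other lists, 8 of 11 leukocyte, 8 of 10 pan-endothelial and 6 of 10 lymphatic markers were higher, and 9 of 10 smooth muscle and pericyte and 7 of 7 glia markers lower, in Rspo3+ cells. Their part was not tested. Oasl1 stood at 11.5, 5.35 and 7.41 CPM against 5.27, 3.48 and 9.86 CPM, and Irf7 at 92.7, 57.2 and 82.6 CPM against 82.5, 64.9 and 72.5 CPM. These ranges overlap. Irf7, Zbp1 and Isg15 differed by -0.08 ± 0.17, -0.16 ± 0.23 and 0.11 ± 0.21 (edgeR adjusted p = 0.845, 0.744 and 0.816).

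The tissue difference among CD31- cells passed for 4 genes, 3 higher and 1 lower, where 4.91% of all genes had a higher and 3.48% a lower value in the colon. These counts lie near those shares. The difference was higher for Oasl1 (4.22 ± 0.62), Irf7 (0.95 ± 0.25) and Ifi35 (0.82 ± 0.23) and lower for Gbp7 (-0.88 ± 0.23), with edgeR adjusted p = 0.00029, 0.0208, 0.0309 and 0.0196. Irf7 lost its call without small intestinal Rspo3+ library 1, Rspo3- library 3 or colonic Rspo3+ library 1 (adjusted p = 0.0543, 0.0666 and 0.0502). It also lost its call with limma (adjusted p = 0.0872). Ifi35 and Gbp7 each lost it in 6 of 12 fits without 1 library (highest adjusted p = 0.0837 and 0.0774). Oasl1 kept it in all of them. Ifi35 also lost its call with no filter (edgeR adjusted p = 0.0573) and with limma (adjusted p = 0.1743). Isg15 and Zbp1 stood at 0.70 ± 0.29 and 0.65 ± 0.33 (edgeR adjusted p = 0.152 and 0.243).

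**Figure D5:**
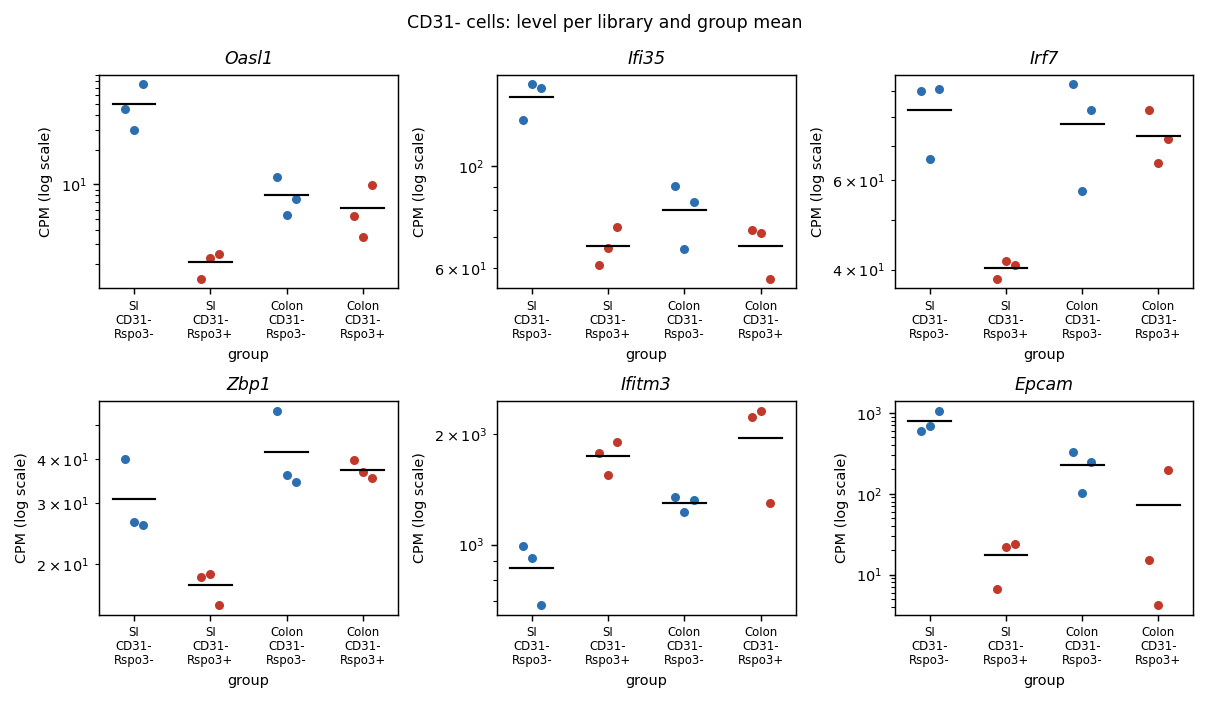
Level in each CD31- library (points; red Rspo3+, blue Rspo3-) and group mean (black line) of 5 of the genes and of the epithelial marker Epcam on a log axis of CPM. Oasl1 is lowest in small intestinal Rspo3+ cells, and Epcam is high in small intestinal Rspo3- cells (594 to 1069 CPM) and in colonic Rspo3+ library 3 (197 CPM).

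Colon and small intestine were then compared within each kind of cell. In CD31+ Rspo3- cells 11 of the 38 genes were higher in the colon and 0 lower, where 2.72% and 1.71% of all genes were (0 lower also at an unadjusted p under 0.05 with edgeR, and with DESeq2 and limma). Lymphatic endothelial markers were lower in the colon for 5 of 10, with sums of 4115 to 7615 CPM in the small intestine and 2630 to 3097 CPM in the colon, and fibroblast markers higher for 2 of 8, and their part was not tested. The 11 genes were Isg15, Rsad2, Gbp3, Igtp, Dtx3l, Rtp4, Irf9, Mx2, Gbp7, Gbp2 and Irf7. The libraries of Isg15 and Rsad2 given above did not overlap between the tissues, and the log2 differences were 1.52 ± 0.21 and 1.74 ± 0.34 (edgeR adjusted p = 0.000235 and 0.00447). Gbp3 stood at 99.7, 132 and 86.2 CPM in the small intestine and 222, 197 and 149 CPM in the colon (log2 0.84 ± 0.18, edgeR adjusted p = 0.00878), a call lost without small intestinal library 3 (adjusted p = 0.0579). That call was also lost with only the compared libraries (edgeR adjusted p = 0.128) and with limma (adjusted p = 0.0525). Irf7 was higher by 0.68 ± 0.17 (edgeR adjusted p = 0.0281), a call lost without library 1 or 2 of the small intestine or library 1 or 3 of the colon (adjusted p = 0.0644 to 0.155), and Zbp1 stood at 0.45 ± 0.23 (adjusted p = 0.327). The Irf7 call was also lost with only the compared libraries (edgeR adjusted p = 0.103). Of the 11 calls, 2 held whichever library was left out. The count was 4 without colonic library 1, 6 without small intestinal library 1, 2 or 3, 14 without the colonic library that held fibroblast markers and the other colonic library set apart, and 2 when the fit held only the compared libraries. In CD31+ Rspo3+ cells 1 gene was higher in the colon and 5 were lower (background 2.83% and 3.52%), and 4 of 9 blood endothelial markers were higher. Oasl2 was lower by -1.09 ± 0.17, Ddx58 by -0.94 ± 0.21 and Ifit2 by -1.38 ± 0.31 (edgeR adjusted p = 0.000413, 0.00853 and 0.0102), and Ifit3 and Ifit3b were the others. Ifit2 lost its call without colonic library 2 (adjusted p = 0.0591), Ifit3 without small intestinal library 3 or colonic library 3 (0.0538 and 0.0663), Ifit3b without colonic library 2 or 3 (0.0643 and 0.0732), and Ddx58 with limma (0.0852). Gbp3 was the gene that was higher, by 0.65 ± 0.18 (edgeR adjusted p = 0.0326), and it lost its call without any 1 of the 6 libraries (adjusted p = 0.052 to 0.133). That call was also lost with no filter (edgeR adjusted p = 0.0544) and with limma (adjusted p = 0.1395). A count of 1 higher gene lies near the share over all genes. The count of 5 was 3 without colonic library 2 or 3. Isg15 stood at -0.65 ± 0.21, Irf7 at -0.14 ± 0.17 and Zbp1 at 0.16 ± 0.23 (edgeR adjusted p = 0.0674, 0.733 and 0.784), and Isg15 passed with DESeq2, with limma and with only the compared libraries (adjusted p = 0.0132 to 0.0462).

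In CD31- Rspo3+ cells 9 genes were higher in the colon and 0 lower (background 3.62% and 3.4%; 1 lower at an unadjusted p under 0.05 with edgeR, and 0 with DESeq2 and limma after adjustment), and 4 of 10 lymphatic markers were lower. Rtp4 stood at 27.3, 24.7 and 29.1 CPM in the small intestine and 80.0, 49.4 and 47.4 CPM in the colon, Irf7 at 38.4, 41.6 and 40.9 against 82.5, 64.9 and 72.5 CPM, and Isg15 at 23.4, 26.8 and 25.4 against 63.1, 43.6 and 42.5 CPM. None of these groups overlapped, and the log2 differences were 1.12 ± 0.23, 0.86 ± 0.18 and 0.98 ± 0.21 (edgeR adjusted p = 0.00397, 0.00431 and 0.00604). Zbp1 was higher by 1.09 ± 0.24 (edgeR adjusted p = 0.00663). The count was 4 without colonic library 1, and 9 without the colonic library that held leukocyte and epithelial markers and the other library set apart. In CD31- Rspo3- cells 9 genes were higher and 3 lower in the colon (background 8.79% and 8.81%), and 5 of 10 lymphatic and 5 of 10 smooth muscle and pericyte markers were higher. All 5 GTPases were among the 9. Irgm1 stood at 65.3, 64.2 and 59.4 CPM in the small intestine and 235, 141 and 132 CPM in the colon (log2 1.43 ± 0.25, edgeR adjusted p = 0.000366). Gbp3 and Gbp7 were higher by 0.97 ± 0.18 and 0.83 ± 0.16 (edgeR adjusted p = 0.00074 and 0.00103). Oasl1, Ifi35 and Parp9 were lower in the colon, by -2.64 ± 0.44, -0.82 ± 0.16 and -0.69 ± 0.22 (edgeR adjusted p = 0.00028, 0.00134 and 0.0312). The count of these 3 lies near the share over all genes. Parp9 lost its call without small intestinal library 1 or 3 or colonic library 2 or 3 (adjusted p = 0.073 to 0.137), and with limma (0.2296). The count of 9 was 5 without small intestinal library 3 or colonic library 1, and the count of 3 was 5 without colonic library 1. Irf7, Zbp1 and Isg15 stood at -0.09 ± 0.17, 0.44 ± 0.23 and 0.28 ± 0.21 (edgeR adjusted p = 0.79, 0.217 and 0.393).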

How the data were processed

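Per the submitters' processing notes, reads were quantified with Salmon 1.3.0 against mm10 and handled in R 4.0.1. The authors deposited estimated counts per gene and library and a table of log2(TPM + 1) values. Both were taken as deposited, and a column was given to a group from its name. Library numbers follow column order and pair no samples. Estimated counts were rounded and genes kept with edgeR's filterByExpr (minimum count 10, minimum total 15). One edgeR 4.0.16 quasi-likelihood fit (R 4.3.3, TMM scaling) covered all 8 groups, with Benjamini-Hochberg adjustment over 19050 genes and a threshold of 0.05. The common biological coefficient of variation was 0.429. Full statistics are given for the 3 smallest adjusted p in each direction of a comparison (5 for tissue differences) and always for Irf7, Zbp1 and Isg15. In the pathway lists, the plan added Irf1 and the receptor genes to the same rule. Comparisons of these lists are given only for the reporter sign in CD31+ cells and in small intestinal CD31- cells. Not every gene of the rule has its full statistics there. One gene of that rule is not reported here. Other genes were described after their values were seen. Alternatives were DESeq2 1.42.0, its size factors, no filter, limma 3.58.1 on log2(TPM + 1), only the compared libraries, each library left out, and, chosen after seeing the data, 2 colonic libraries left out together. The 38 genes and the lists were chosen with earlier results of these data known. The edgeR fit was tested on simulated data for the small intestinal CD31+ reporter comparison only, with changes placed in genes of ample counts. The other fits and comparisons were not tested in this way. SMART-Seq v4 libraries do not mark strand.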

Additional observations from a re-analysis of the deposited data

Results flagged for a closer look

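These are the genes whose response to the reporter sign differed between colon and small intestine by a test of the difference itself, given as the colonic minus the small intestinal log2 change. Among CD31+ cells the differences were -2.17 for Isg15, -2.59 for Rsad2, -1.29 for Oasl2, -2.51 for Ifit3, -2.52 for Ifit3b, -2.09 for Ifit2, -1.31 for Rtp4 and -1.19 for Ddx58. Among CD31- cells they were 4.22 for Oasl1, -0.88 for Gbp7, 0.95 for Irf7 and 0.82 for Ifi35. The number of CD31- genes lies near the share over all genes, and 1 of the 4 calls, Oasl1, held in every alternative fit. Isg15, Rsad2 and Ifit3b passed the test in opposite directions in the 2 tissues.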

How the results depend on the processing

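No paired analysis was possible from the labels because the column names carry no replicate number of the labels. The columns run in the same order of groups as the labels, but a fit with that order as a block was not run. Any effect shared by libraries of the same number was therefore not tested. Counts below are of the 38 genes, higher and lower. In the CD31+ reporter comparison, leaving out 1 library gave 11 to 14 higher and 1 to 2 lower in the small intestine, and 5 to 6 and 11 to 14 in the colon. Without both colonic libraries that held markers of other cell types, chosen after seeing the data, 3 were higher in the colon. In the CD31- reporter comparison the ranges were 1 to 2 and 7 to 12 in the small intestine and 0 to 2 and 0 to 0 in the colon. Without both colonic libraries 2 were higher in each tissue. In the colon DESeq2 gave 3 higher and 1 lower, and limma on log2 TPM 9 lower. For CD31+ against CD31- cells the ranges were 29 to 30 and 1 to 1 (Rspo3+, small intestine), 17 to 20 and 2 to 3 (Rspo3+, colon), 19 to 22 and 1 to 3 (Rspo3-, small intestine), and 29 to 33 and 0 to 3 (Rspo3-, colon). Lower genes numbered 0 with limma in Rspo3+ colon, 1 with only the compared libraries in Rspo3- small intestine, and 2 with DESeq2 or its size factors in Rspo3- colon. For colon against small intestine the ranges were 0 to 1 and 3 to 5 (CD31+ Rspo3+), 4 to 9 and 0 to 0 (CD31- Rspo3+), 4 to 12 and 0 to 0 (CD31+ Rspo3-), and 5 to 8 and 2 to 5 (CD31- Rspo3-). In CD31+ Rspo3+ cells 0 were higher with no filter or limma, 2 with DESeq2 or without both colonic libraries, and 8 lower with only the compared libraries. In CD31+ Rspo3- cells 7 were higher with limma and 2 with only the compared libraries. The tissue difference had ranges of 0 to 1 and 6 to 9 in CD31+ cells and 1 to 4 and 0 to 1 in CD31- cells, where DESeq2 gave 5 higher and limma 1 higher and 2 lower. The cause of these shifts was not tested.

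Values that changed sign had not passed the test, and leaving out 1 library gave these ranges. For the reporter, Irf7 ran from -0.1457 to 0.1323 in small intestinal CD31+ cells and from -0.2753 to 0.06239 in colonic CD31- cells, where Zbp1 ran from -0.2877 to 0.08078 and Isg15 from -0.09542 to 0.265 (-0.2019 with limma). For CD31 in small intestinal Rspo3- cells, Irf7 ran from -0.01319 to 0.2274. For colon against small intestine, Irf7 ran from -0.2237 to 0.002472 in CD31+ Rspo3+ cells and from -0.2626 to 0.07553 in CD31- Rspo3- cells (0.2113 with limma). Among all genes the median moved from 0.11 to 0 with DESeq2 size factors for the reporter in small intestinal CD31- cells. In colonic CD31- cells that median moved from 0 to -0.23 with limma on log2 TPM. With 3 libraries a group and totals from 8462041 counts, genes of few counts such as Oas3 are the least precise.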
